A study of Homo sapiens with 12 samples.

Results

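The genes described here are 10 factors that recognise collided ribosomes, pull them apart or clear what blocks them, namely GCN1, RNF14, RNF25, EDF1, ZNF598, GIGYF2, ASCC3, MAP3K20, PELO and HBS1L. They were chosen by Ensembl identifier from a list of names, and all 10 were found among the 19580 genes of the deposited footprint table. All 10 passed the filter on low values that left 11510 genes for testing. Ribosome footprints, the mRNA fragments that ribosomes shield from RNase I, had been sequenced from HAP1, a human cell line that descends from KBM-7 and is nearly haploid. The 4 groups were cells given 5 uM 4-thiouridine (4SU) for 18 h and then 6 kJ per square metre of UVA, cells given 4SU alone, cells given UVA alone, and untreated cells. Harvest followed irradiation by 30 min. Every group was wild type in genotype and held 3 biological replicates, 12 libraries in all. 4SU is a uridine analogue that is built into new RNA and, under UVA, links covalently to proteins it touches, so 4SU+UVA was the treatment that placed crosslinks between RNA and protein.

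A ribosome that stops on an mRNA is run into by the one behind it, and the surface between collided ribosomes is what several of these factors recognise. GCN1 is a very large scaffold that sits on collided ribosomes and is known for activating the kinase GCN2. RNF14 and RNF25 are ubiquitin ligases that work with GCN1 in marking translation factors trapped on stalled ribosomes. EDF1 binds collided ribosomes, and GIGYF2 represses initiation on the affected mRNA. ZNF598 ubiquitylates the small subunit, after which the helicase ASCC3 can split the collided ribosomes. MAP3K20 (also called ZAK) is the kinase that starts the ribotoxic stress response, and PELO with the GTPase HBS1L rescues ribosomes stalled near mRNA ends.

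Values are RPKM, footprint reads scaled by transcript length and by library size, and reflect how much of an mRNA was present as well as how many ribosomes it carried. Library totals ran from 1899854 reads in 4SU+UVA replicate 2 to 5832366 in untreated replicate 3. A single member had between 43 reads (RNF25 in 4SU+UVA replicate 2) and 2806 reads (GCN1 in untreated replicate 3) in a library. Changes are differences of mean log2(RPKM + 0.5), treated minus untreated, and the added 0.5 draws the change of low genes toward 0. RPKM is relative to each library's own total, and the median of all tested genes moved by 0.23 on the log2 scale in 4SU+UVA against untreated cells. Each change is therefore also given relative to that median gene where it matters. In these bulk libraries, footprints from fewer cells and fewer footprints per cell cannot be told apart. No gene symbols stand beside the identifiers in the table, so markers of the cell line and other genes of the pathway were not analysed here.

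The genes lie on 6 chromosomes by the RefSeq annotation of GRCh38.p14. GCN1 (ENSG00000089154) spans 120127202 to 120194715 on chromosome 12, RNF14 (ENSG00000013561) spans 141949337 to 141990292 on chromosome 5 and RNF25 (ENSG00000163481) spans 218663892 to 218672002 on chromosome 2. EDF1 (ENSG00000107223) lies on chromosome 9 (136862119 to 136866308), ZNF598 (ENSG00000167962) on chromosome 16 (1997654 to 2009821) and GIGYF2 (ENSG00000204120) on chromosome 2 (232697331 to 232860605). ASCC3 (ENSG00000112249) lies on chromosome 6 (100508194 to 100881329), as does HBS1L (ENSG00000112339, 134960378 to 135054822). MAP3K20 (ENSG00000091436) is on chromosome 2 (173075517 to 173268015) and PELO (ENSG00000152684) on chromosome 5 (52787916 to 52804044). The spans of PELO, RNF14 and GIGYF2 overlap those of the protein-coding genes ITGA1, PCDH12 and KCNJ13. Whether reads were counted by strand is not given in the sources used here, so part of the reads of these 3 genes could belong to the neighbour.

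The transcript on which each gene was counted could be read from the RPKM steps. It was 8681 nt for GCN1, 7179 nt for MAP3K20, 5747 nt for GIGYF2, 4371 nt for PELO and 3999 nt for RNF14. For the others it was 3433 nt for ASCC3, 3366 nt for ZNF598, 2793 nt for HBS1L, 1477 nt for RNF25 and 809 nt for EDF1. The 3433 nt listed for ASCC3 are too few to hold the coding sequence of the full-length helicase. Short ASCC3 transcripts with another last exon are known in human cells. Which ASCC3 transcript the reads came from was not tested, and the values below are those of the listed one. HBS1L also makes a splice form known as the human counterpart of yeast Ski7, and the table has a single row for the gene.

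In 4SU+UVA against untreated cells 6 of the 10 genes passed the test, 3 higher (EDF1, ASCC3 and PELO) and 3 lower (GCN1, RNF25 and GIGYF2). Of all genes tested 59% passed, 40.6% higher and 18.4% lower, so the number of members called was that of genes at large. With every library set to a common median, 27% of all genes passed higher and 25.1% lower, and the members were 3 higher and 4 lower, RNF14 being added. The median change of the 10 genes was 0.11, beside 0.23 over all genes, and the range ran from -1.43 for GCN1 to 0.60 for ASCC3. The libraries of the 2 groups did not overlap for 8 of the 10 genes, beside 63.7% of all genes.

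**Figure D1:**
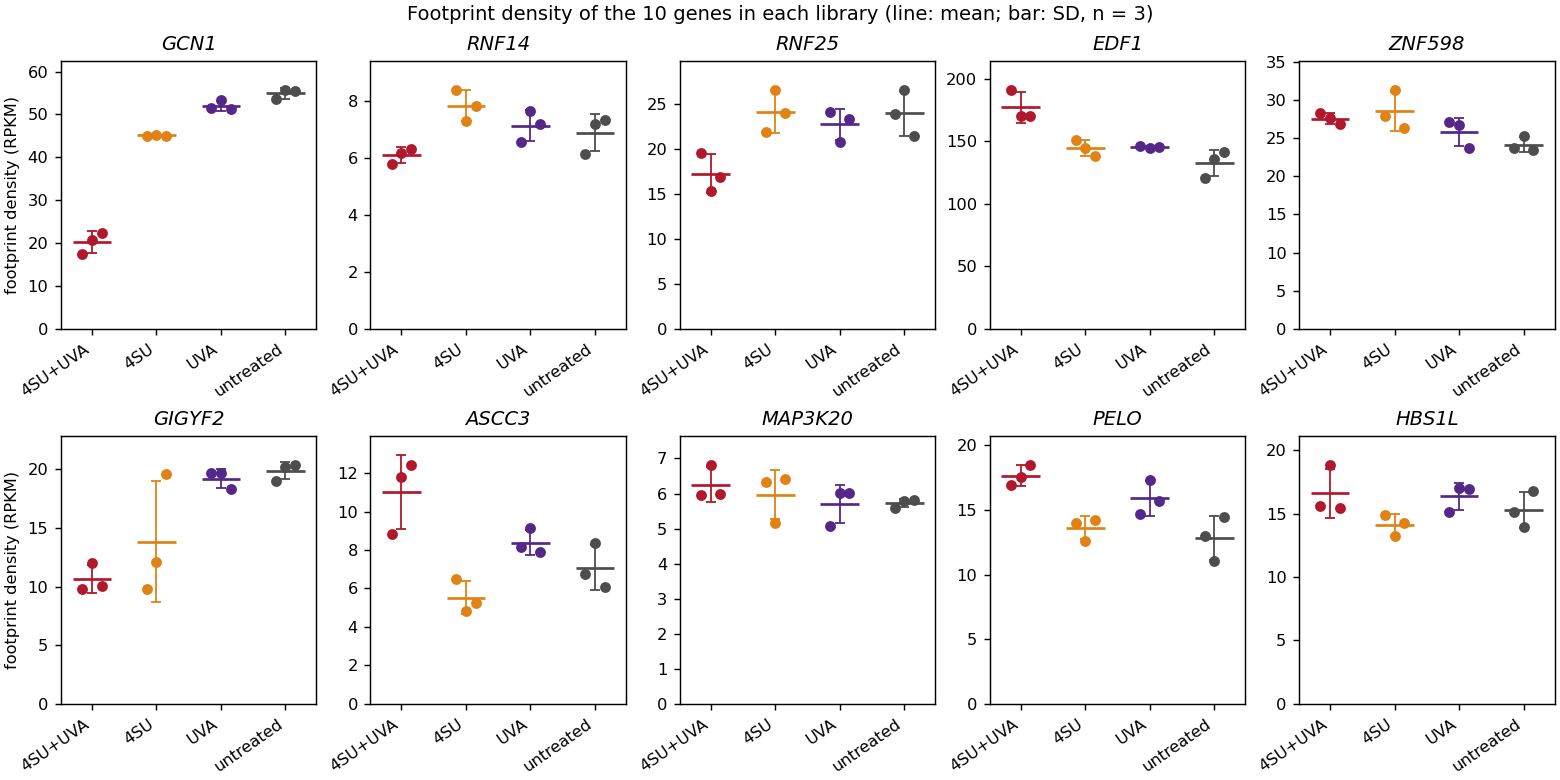
Footprint density (RPKM, axis from 0) of each of the 10 genes in every library, with points for the 3 libraries of a group, a line for their mean and a bar for the SD. The 4SU+UVA libraries of GCN1 sit between 17.3 and 22.4 RPKM, below all others, and 1 of the 3 4SU libraries of GIGYF2 stands at 19.6 RPKM beside 9.77 and 12.1.

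GCN1 footprints fell most of the 10. They stood at 17.3, 20.6 and 22.4 RPKM in 4SU+UVA cells, at 45.0, 45.3 and 45.0 RPKM with 4SU, at 51.6, 53.3 and 51.2 RPKM with UVA and at 53.5, 55.8 and 55.4 RPKM in untreated cells. All 3 4SU+UVA libraries lay far below the other 9, the 4SU libraries lay below all UVA and untreated ones, and every UVA library lay below every untreated one. The change in 4SU+UVA against untreated cells was -1.43 (SE 0.08, 95% interval -1.61 to -1.26, limma adjusted p = 9.4e-09), a 2.701-fold drop that rests on 1764 reads in 4SU+UVA and 7120 in untreated cells. Relative to the median gene it was -1.67, which placed GCN1 at rank 80 from the lowest of the 11510 genes. GCN1 was the source of 23.9 ± 2.38% of the reads of all 10 genes in 4SU+UVA cells, against 47.4 ± 0.407% in untreated cells (SD, n = 3 each).

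RNF25 fell with it, though less. This small ligase stood at 19.6, 15.3 and 16.9 RPKM in 4SU+UVA cells and 24.0, 26.6 and 21.5 RPKM in untreated cells, with 21.9, 26.6 and 24.0 RPKM under 4SU and 24.2, 20.8 and 23.3 RPKM under UVA. The 4SU+UVA libraries were the 3 lowest of the 12, and the other 3 groups overlapped. The change in 4SU+UVA against untreated cells was -0.46 (SE 0.11, limma adjusted p = 0.0026), a 1.38-fold drop that rests on 279 reads in 4SU+UVA and 526 in untreated cells.

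RNF14, the other ligase, had 5.79, 6.19 and 6.32 RPKM in 4SU+UVA cells, 8.40, 7.30 and 7.81 RPKM with 4SU, 6.55, 7.65 and 7.21 RPKM with UVA and 6.14, 7.20 and 7.33 RPKM in untreated cells. Its 4SU+UVA and untreated libraries overlapped. The change in 4SU+UVA against untreated cells, -0.16 (95% interval -0.40 to 0.08, limma adjusted p = 0.24), did not pass with the deposited scaling. It was -0.33 after median centring and -0.44 after quantile normalisation, and passed under both (limma adjusted p = 0.022 and 0.0041). Whether RNF14 fell in 4SU+UVA against untreated cells therefore depends on the scaling.

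Among the factors that recognise collisions, EDF1 had by far the highest density. It stood at 191, 170 and 170 RPKM in 4SU+UVA cells, 151, 145 and 138 RPKM with 4SU, 146, 145 and 145 RPKM with UVA, and 121, 136 and 142 RPKM in untreated cells. Every 4SU+UVA library lay above the other 9. EDF1 rose by 0.42 in 4SU+UVA against untreated cells (SE 0.07, limma adjusted p = 0.00014), or 1.34-fold, and by 0.18 relative to the median gene. It also passed after median centring, at 0.25 (limma adjusted p = 0.011).

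ZNF598, the ligase that marks the small subunit, had 28.3, 27.7 and 26.8 RPKM in 4SU+UVA cells, 27.9, 31.4 and 26.3 RPKM with 4SU, 27.2, 26.7 and 23.8 RPKM with UVA, and 23.7, 25.3 and 23.5 RPKM in untreated cells. The 4SU+UVA libraries all lay above the untreated ones, and so did the 4SU libraries. Neither difference passed, at 0.19 for 4SU+UVA (95% interval 0.01 to 0.37, limma adjusted p = 0.069) and 0.23 for 4SU (95% interval 0.05 to 0.42, limma adjusted p = 0.082). The 4SU difference passed without 4SU replicate 3, at 0.29 (adjusted p = 0.042), and with limma's voom on the recovered reads, at 0.24 (adjusted p = 0.044). Relative to the median gene the 4SU+UVA difference was -0.04. After median centring it was 0.02 and after quantile normalisation 0.13, without passing (limma adjusted p = 0.88 and 0.22). The median gene is the median of the changes of all genes, whereas median centring gives every library a common median.

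GIGYF2, the repressor of initiation, fell in 4SU+UVA cells. It stood at 9.82, 11.998 and 10.1 RPKM there, at 19.6, 19.7 and 18.3 RPKM with UVA and at 19.0, 20.2 and 20.4 RPKM in untreated cells. The 4SU+UVA libraries lay well below both of these groups, with a change of -0.88 against untreated cells (SE 0.18, 95% interval -1.25 to -0.50, limma adjusted p = 7e-04), a 1.84-fold drop. With 4SU alone the replicates were apart, at 9.77, 12.1 and 19.6 RPKM. Replicates 1 and 2 lay close to the 4SU+UVA libraries and replicate 3 within the range of untreated cells. Their reads (224, 310 and 509) varied 47.1 times as much as counting error alone would give, an index that was 1.93, 0.862 and 0.663 in the 4SU+UVA, UVA and untreated groups.

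ASCC3, the helicase that splits collided ribosomes, had the largest rise among the 10. Its listed transcript stood at 8.85, 11.8 and 12.4 RPKM in 4SU+UVA cells, 6.496, 4.84 and 5.23 RPKM with 4SU, 8.15, 9.13 and 7.89 RPKM with UVA, and 6.77, 8.39 and 6.09 RPKM in untreated cells. The 4SU+UVA libraries lay above all untreated and 4SU ones but overlapped those with UVA. The rise in 4SU+UVA against untreated cells was 0.60 (SE 0.15, 95% interval 0.27 to 0.93, limma adjusted p = 0.0038), or 1.52-fold, on 375 reads in 4SU+UVA and 362 in untreated cells. Relative to the median gene the rise was 0.37, and after median centring it was 0.43 (limma adjusted p = 0.023).

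PELO, which dissociates stalled ribosomes, rose in 4SU+UVA cells. It had 16.9, 17.6 and 18.5 RPKM there, 14.0, 12.6 and 14.2 RPKM with 4SU, 14.6, 17.3 and 15.7 RPKM with UVA, and 13.0, 11.0 and 14.4 RPKM in untreated cells. The 4SU+UVA and the UVA libraries each lay above all untreated ones, and these 2 irradiated groups overlapped. The rise in 4SU+UVA against untreated cells was 0.45 (SE 0.11, limma adjusted p = 0.0023), or 1.37-fold, and 0.22 relative to the median gene. HBS1L, its partner, ranged from 13.2 to 18.8 RPKM over the 12 libraries, with 16.6 ± 1.93 RPKM in 4SU+UVA and 15.3 ± 1.43 RPKM in untreated cells (SD, n = 3 each), and did not pass (0.11, 95% interval -0.11 to 0.34, limma adjusted p = 0.37).

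MAP3K20, the stress kinase, ranged from 5.06 to 6.82 RPKM in the 12 libraries. The 4SU+UVA libraries (5.95 to 6.82 RPKM) all lay above the untreated ones (5.59 to 5.83 RPKM). MAP3K20 averaged 6.25 ± 0.49 RPKM in 4SU+UVA and 5.73 ± 0.124 RPKM in untreated cells (SD, n = 3 each). The difference of 0.11 did not pass (95% interval -0.15 to 0.38, limma adjusted p = 0.44). For MAP3K20 and HBS1L the sign of this difference turned after median centring, to -0.06 for each, without passing.

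**Figure D2:**
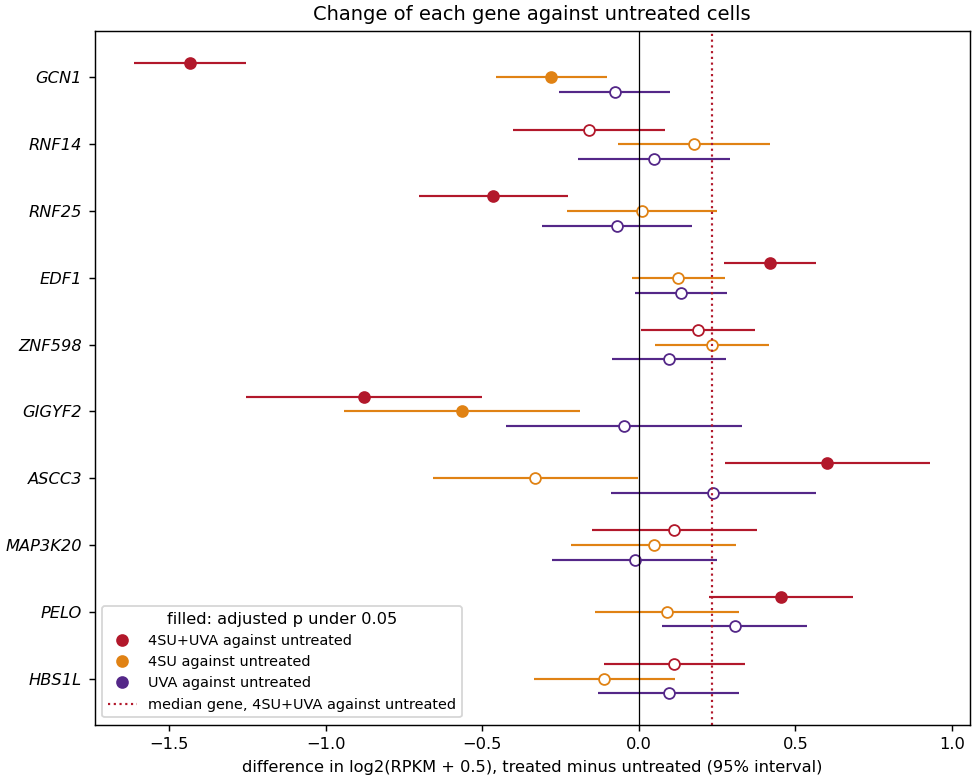
Change of each of the 10 genes in 4SU+UVA, 4SU and UVA cells, each minus untreated cells, as a difference of mean log2(RPKM + 0.5) with its 95% interval (limma, n = 3 per group). Filled points passed at adjusted p under 0.05, and the dotted line marks the median of all genes for 4SU+UVA, at 0.23. GCN1 at -1.43 and GIGYF2 at -0.88 stand lowest, and no point for UVA alone is filled.

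With 4SU alone 2 of the 10 genes passed against untreated cells, both lower, where 14.4% of all genes passed, 11.3% higher and 3.12% lower (5.56% and 9.38% after median centring). Libraries did not overlap for 2 of the 10 (GCN1 and ZNF598), beside 35.3% of all genes. GCN1 fell by 0.28 (SE 0.08, limma adjusted p = 0.037), to 45.1 ± 0.154 RPKM with 4SU, against 54.9 ± 1.2 RPKM in untreated cells (SD, n = 3 each). GIGYF2 was at -0.57 (SE 0.18, limma adjusted p = 0.045) on the 3 discordant replicates described above. The GIGYF2 value was -0.35 without 4SU replicate 1 (adjusted p = 0.20), -0.50 without 4SU replicate 2 (adjusted p = 0.15) and -0.84 without 4SU replicate 3 (adjusted p = 0.00062). The GCN1 call was lost without any 1 of the untreated or 4SU libraries and without UVA replicate 2 (limma adjusted p from 0.051 to 0.11), although its value stayed between -0.30 and -0.27. That of GIGYF2 was also lost without any 1 untreated or UVA library and without 4SU+UVA replicate 1 or 3 (limma adjusted p from 0.052 to 0.12). ASCC3, at -0.33 with 4SU alone (95% interval -0.66 to -0.003), did not pass with the deposited scaling (limma adjusted p = 0.16) and passed after median centring, at -0.46 (adjusted p = 0.0496). The other genes lay between -0.11 for HBS1L and 0.23 for ZNF598, and their libraries overlapped the untreated ones except for ZNF598. This comparison and the preceding one share the untreated libraries.

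With UVA alone 0 of the 10 genes passed against untreated cells (limma), where 0.652% of all genes passed, 0.278% higher and 0.374% lower (0.165% and 0.417% after median centring). PELO came nearest, with 15.9 ± 1.35 RPKM under UVA and 12.8 ± 1.72 RPKM in untreated cells (SD, n = 3 each), a difference of 0.31 (95% interval 0.08 to 0.54, limma adjusted p = 0.41). PELO was the only member with an unadjusted p under 0.05 (0.013), and limma's voom on the recovered reads also passed 0 of the 10. The 95% intervals were -0.26 to 0.10 for GCN1, -0.01 to 0.28 for EDF1, -0.09 to 0.28 for ZNF598, -0.19 to 0.29 for RNF14 and -0.09 to 0.57 for ASCC3. UVA and untreated libraries did not overlap for 3 of the 10 genes (GCN1, EDF1 and PELO), beside 16.8% of all genes.

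When UVA was given to cells that carried 4SU (4SU+UVA against 4SU), 6 of the 10 genes passed, where 44% of all genes passed, 25% higher and 19% lower (21.7% and 21.2% after median centring). The libraries did not overlap for 7 of the 10 genes, beside 51% of all genes. GCN1 fell by 1.15 (SE 0.08, limma adjusted p = 1.4e-07), RNF25 by 0.48 (SE 0.11, adjusted p = 0.0033) and RNF14 by 0.34 (SE 0.11, adjusted p = 0.027). All 3 members of the GCN1 group thus fell here, and for each of them every 4SU+UVA library lay below every 4SU library. ASCC3 rose by 0.93 (SE 0.15, limma adjusted p = 0.00022), or 1.91-fold and had its highest group mean, 11.0 ± 1.91 RPKM, with 4SU+UVA, against its lowest, 5.52 ± 0.865 RPKM, with 4SU (SD, n = 3 each). PELO rose by 0.36 (adjusted p = 0.013) and EDF1 by 0.29 (adjusted p = 0.0034). GIGYF2, with its spread among 4SU replicates, did not pass at -0.31 (95% interval -0.69 to 0.06). It passed without 4SU replicate 1, at -0.52 (limma adjusted p = 0.017), and with voom on the recovered reads of all libraries, at -0.37 (adjusted p = 0.048). Without 4SU replicate 3 it was -0.04. The RNF14 call was lost without 4SU+UVA replicate 1, 4SU replicate 1 or 4SU replicate 3 (limma adjusted p = 0.072, 0.089 and 0.057), with values from -0.34 to -0.29, and when only the groups compared entered the fit (adjusted p = 0.062). That of PELO was lost without 4SU replicate 2 (adjusted p = 0.057).

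Set against UVA alone, the 4SU+UVA cells were lower at GCN1, RNF25 and GIGYF2 and higher at EDF1, 4 of the 10 genes, where 54.4% of all genes passed, 34.7% higher and 19.8% lower (27.3% and 23.3% after median centring). The libraries did not overlap for 5 of the 10, beside 59.4% of all genes. The changes were -1.36 for GCN1 (SE 0.08, limma adjusted p = 1.2e-08), -0.83 for GIGYF2 (SE 0.18, adjusted p = 0.0012), -0.39 for RNF25 (SE 0.11, adjusted p = 0.0084) and 0.28 for EDF1 (SE 0.07, adjusted p = 0.0032). RNF14 was at -0.21 and passed after median centring, at -0.30 (adjusted p = 0.037). ASCC3 and PELO, which rose against untreated and against 4SU cells, did not pass here, at 0.36 (95% interval 0.04 to 0.69, limma adjusted p = 0.057) and 0.15 (95% interval -0.08 to 0.38, adjusted p = 0.26). ASCC3 passed without 4SU+UVA replicate 1, at 0.51 (adjusted p = 0.014), and without 4SU replicate 1 or untreated replicate 2 (adjusted p = 0.049 and 0.0497). These 2 comparisons share the 4SU+UVA libraries with each other and with the first.

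The interaction term, in which the UVA difference of cells without 4SU is subtracted from that of cells with 4SU, asks whether the joint treatment departed from the added effects. It passed for 2 of the 10 genes, where 24.8% of all genes passed, 10.7% above and 14.1% below the sum (12.5% and 12.2% after median centring). GCN1 lay below the sum by 1.08 (SE 0.12, limma adjusted p = 1.9e-05), with a UVA difference of -1.15 with 4SU and -0.08 without. ASCC3 lay above the sum by 0.69 (SE 0.22, limma adjusted p = 0.03), with a UVA difference of 0.93 with 4SU and 0.24 without. RNF25 and RNF14 were at -0.40 and -0.38 and did not pass (adjusted p = 0.077 and 0.096). The RNF25 value passed without 4SU+UVA replicate 1, at -0.497 (limma adjusted p = 0.033). For GIGYF2 the interaction was -0.26 with a wide 95% interval of -0.80 to 0.27. The ASCC3 call rests on few reads per library (74 to 170) and was lost when certain single libraries were left out. Its values there ran from 0.57 to 0.68, with a highest limma adjusted p of 0.082. Those libraries were replicates 2 and 3 of 4SU+UVA, 2 and 3 of 4SU, 1 and 3 of UVA, and 2 of untreated cells.

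**Figure D3:**
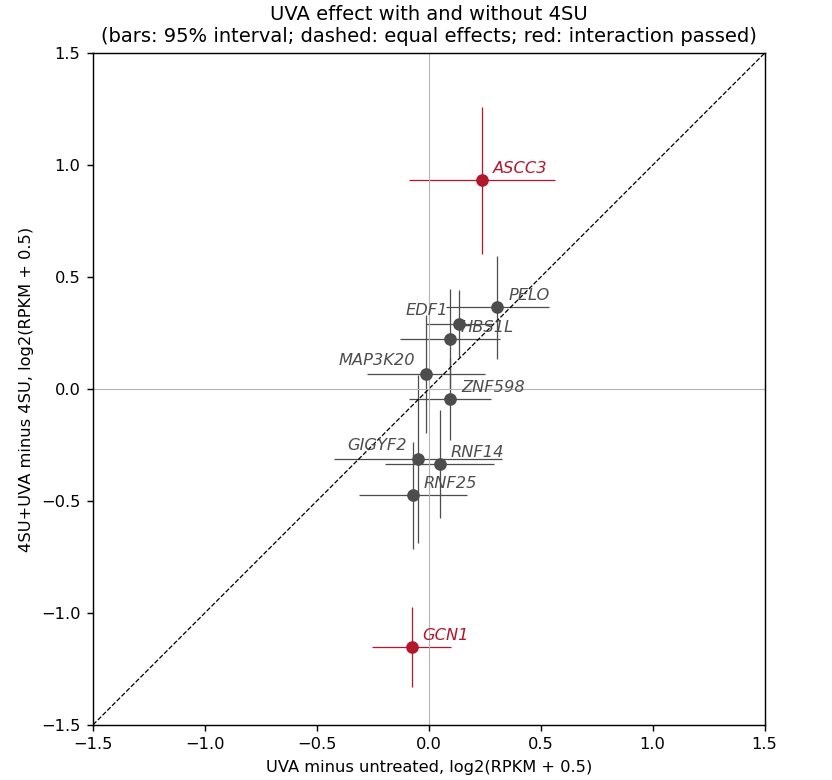
UVA effect on the 10 genes in cells carrying 4SU (vertical axis, 4SU+UVA minus 4SU) against the UVA effect without 4SU (horizontal axis, UVA minus untreated), both as differences of mean log2(RPKM + 0.5) with 95% intervals. The 2 axes share no library. GCN1, at -1.15 and -0.08, and ASCC3, at 0.93 and 0.24, are the genes in red, for which the interaction passed.

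Ratios of 2 genes within a library hardly depend on how that library was scaled, and 5 were compared between 4SU+UVA and untreated cells. They pair factors that act in one complex or one branch. The log2 ratio of RNF14 to GCN1 was -1.504, -1.66 and -1.75 in 4SU+UVA cells and -3.02, -2.87 and -2.84 in untreated cells. It was higher in 4SU+UVA cells by 1.27, or 2.42-fold, and took intermediate values of -2.36, -2.55 and -2.45 with 4SU alone. The log2 ratio of RNF25 to GCN1 was -0.21 ± 0.33 in 4SU+UVA cells, -0.89 ± 0.13 with 4SU, -1.18 ± 0.14 with UVA and -1.18 ± 0.15 in untreated cells (SD, n = 3 each). The 3 UVA values of RNF25 to GCN1 lay within the untreated range, and those of RNF14 to GCN1 (-2.88, -2.72 and -2.75) overlapped it.

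PELO to HBS1L had log2 ratios of 0.11, -0.10 and 0.26 in 4SU+UVA cells and -0.21, -0.33 and -0.21 in untreated cells. The difference was 0.34, and the 4SU libraries (-0.09 to -0.003) and the UVA libraries (-0.10 to 0.02) also lay above all untreated ones. EDF1 to ZNF598 was 2.66 ± 0.07 in 4SU+UVA and 2.43 ± 0.12 in untreated cells (SD, n = 3 each), again without overlap. Each of these 4 ratios gave p = 0.1 in an exact two-sided permutation test, the smallest that 3 against 3 libraries can give, and 0.125 adjusted over the 5 ratios. ZNF598 to ASCC3 was 1.298 ± 0.29 in 4SU+UVA and 1.71 ± 0.16 in untreated cells (SD, n = 3 each) and its libraries overlapped (exact permutation test, p = 0.2). With 4SU alone it stood at 2.28 ± 0.28, and all 3 of those libraries lay above the other 9.

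**Figure D4:**
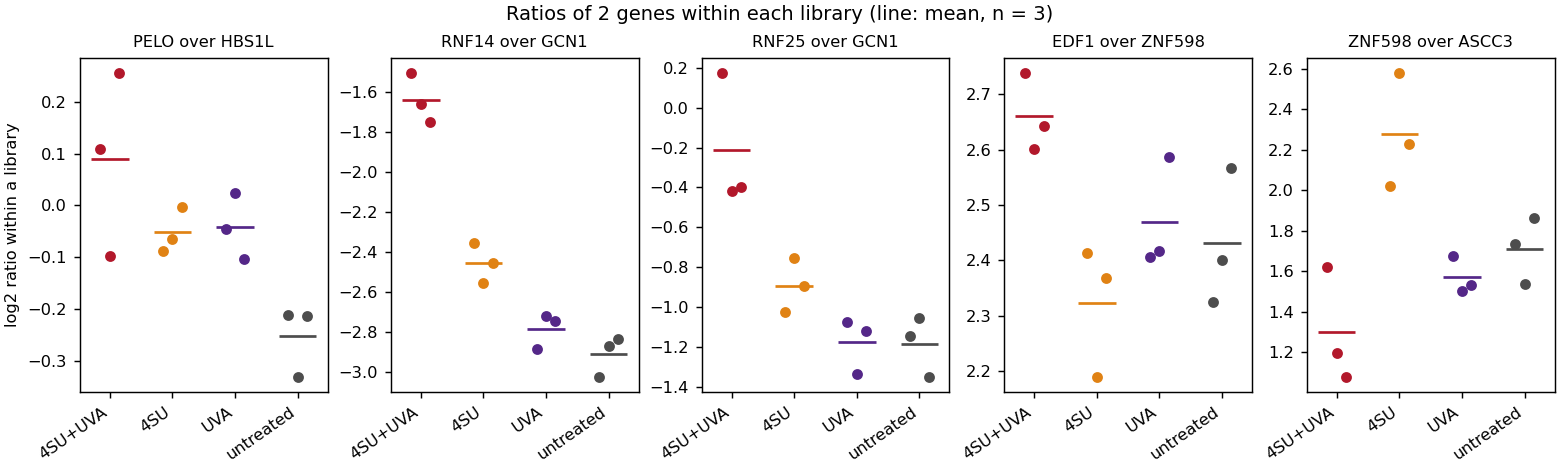
Log2 ratio of the RPKM values of 2 genes in each library, for 5 pairs, with points for libraries and a line for the mean of each group (n = 3, axes do not start at 0). RNF14 over GCN1 averages -1.64 in 4SU+UVA and -2.91 in untreated cells.

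The order of the genes by density per transcript length differed between 4SU+UVA and untreated cells. In 4SU+UVA cells ZNF598 (27.6 RPKM) came after EDF1 (177 RPKM), followed by GCN1 (20.1), PELO (17.7), RNF25 (17.3) and HBS1L (16.6), and GCN1 to HBS1L overlapped from neighbour to neighbour. ASCC3 (11.0) and GIGYF2 (10.6) overlapped, as did MAP3K20 (6.25) and RNF14 (6.10) at the low end. In untreated cells EDF1 led at 133 RPKM, before GCN1 (54.9), ZNF598 (24.2), RNF25 (24.0), GIGYF2 (19.9), HBS1L (15.3), PELO (12.8), ASCC3 (7.08), RNF14 (6.89) and MAP3K20 (5.73). There the libraries of ZNF598 and RNF25, of HBS1L and PELO, and of ASCC3 and RNF14 overlapped. With UVA alone the order of the group means was that of untreated cells. With 4SU alone HBS1L (14.1 RPKM) came before GIGYF2 (13.8), and ASCC3 (5.52) came last, after MAP3K20 (5.97). In both of these pairs the libraries overlapped. The densities divide reads by the whole listed transcript, untranslated regions included, so a gene with long untranslated regions ranks lower than its coding sequence alone would give.

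Together the 10 genes took 0.0728 ± 0.0025% of library reads in 4SU+UVA cells, 0.0912 ± 0.00215% with 4SU, 0.101 ± 0.00248% with UVA and 0.101 ± 0.00284% in untreated cells (SD, n = 3 each). Without GCN1 the other 9 took 0.0554 ± 0.00111% in 4SU+UVA cells and 0.053 ± 0.00184% in untreated cells.

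Transcript length and density move with the size of these changes across all genes, so each gene was set beside the genes of its own class, out of 5 equal classes by length and 5 by mean density. GCN1 belongs to the longest and densest class, whose 112 genes had a median change of -0.80 in 4SU+UVA against untreated cells, so its -1.43 was 0.63 below that median, and 18 of the 112 genes had a lower value. GIGYF2, at -0.88, is in the longest class and the next densest one, with a class median of -0.52 over 287 genes, of which 90 were lower. RNF25 went against its class, the next shortest after the shortest, with -0.46 beside a median of 0.21, and 39 of 548 genes were lower. ASCC3 and PELO share a class of 545 genes with a median of 0.14, of which 86 were higher than ASCC3 and 133 higher than PELO. EDF1, at 0.42, was near its class of short, dense transcripts (median 0.28), and MAP3K20, at 0.11, near its own (median 0.17). ZNF598, at 0.19, lay above a class median of -0.14, and RNF14, at -0.16, below one of 0.28. The part of length and density in these changes was not tested.

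**Figure D5:**
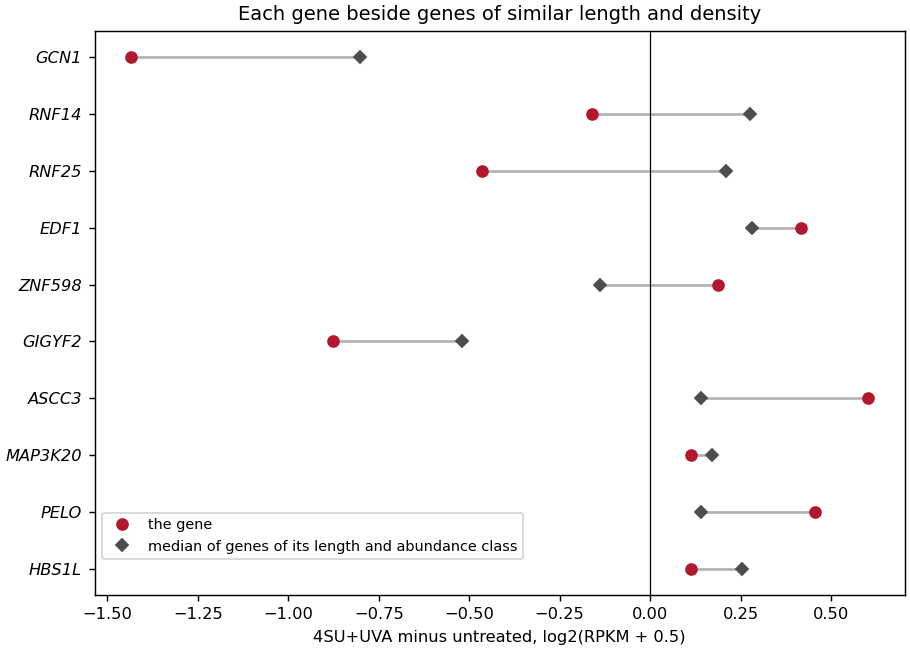
Change in 4SU+UVA minus untreated cells, as a difference of mean log2(RPKM + 0.5), for each of the 10 genes (circles) and for the median of the genes in the same class of transcript length and mean density (diamonds). GCN1 lies at -1.43 beside a class median of -0.80, RNF25 at -0.46 beside 0.21.

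Likeness over the 12 libraries was taken as the root mean square difference of log2 values centred on each gene's own mean. By this measure the genes most like GCN1 were ENSG00000086758 (0.042), ENSG00000153827 (0.0818) and ENSG00000077097 (0.0823), out of 8130 genes with a mean of at least 5 RPKM. ENSG00000086758, with a transcript of 14731 nt, stood at 23.6 ± 2.97 RPKM in 4SU+UVA and 60.7 ± 1.22 RPKM in untreated cells (SD, n = 3 each). ENSG00000153827, of 9874 nt, stood at 13.3 ± 1.7 RPKM in 4SU+UVA and 33.3 ± 0.241 RPKM in untreated cells. ENSG00000077097, with a shorter transcript of 5389 nt, stood at 21.9 ± 1.48 RPKM in 4SU+UVA and 57.3 ± 0.472 RPKM in untreated cells. Nearest to ASCC3 were ENSG00000115306 (0.164), ENSG00000213930 (0.166) and ENSG00000185187 (0.169), a likeness that is looser than that of GCN1.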

How the data were processed

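Per the labels' protocols, RNase I was applied to cycloheximide lysates, a spin through sucrose collected the ribosomes, and footprints of selected size became PCR-amplified cDNA libraries. The labels mention no molecular identifiers, so depth limits cover counting error only. Per the submitters' processing notes, STAR 2.7.10a and hg38 were used. For the counting tool and annotation, the sources used here name none. The authors deposited RPKM values, and whole reads, transcript lengths and totals were recovered from their steps (100% of values whole within 0.001 reads; lengths were sought so that reads come out whole, so this is no independent check).

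Genes that reached 1 RPKM in 3 or more libraries were tested on log2(RPKM + 0.5) with limma 3.58.1 in R 4.3.3 (lmFit, eBayes with a variance trend, 4 group means over 12 libraries), two-sided, with Benjamini-Hochberg adjustment over all 11510 genes and a threshold of 0.05. The recovery of reads and the limma fit, the latter for 4SU+UVA against untreated cells only, were tested on simulated data. The permutation was tried on small made-up groups, and the interaction, the classes and the alternatives were not simulated. Ratios of members were compared by exact permutation. Same-numbered replicates deviated together in no pair of groups (r from -0.046 to 0.068 over 18 pairs), so numbers were not used for pairing. The members, classes and lists were chosen with earlier results of these data known. All 10 members were named in every comparison, and the 3 genes nearest to the member with the largest fall and the largest rise were named. A list of 66 further pathway genes could not be used, since 0 entries of the gene table carry an Ensembl identifier. Alternatives were other pseudocounts, filters and scalings, no variance trend, a replicate block, the compared groups alone, each library left out, and voom on recovered reads, which was added after the data were seen.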

Additional observations from a re-analysis of the deposited data

Results flagged for a closer look

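For 2 of the 10 genes the effect of UVA differed between cells with and without 4SU by a test of the difference itself (limma interaction, 12 libraries). For GCN1 the UVA effect with 4SU minus that without was -1.08 (SE 0.12, adjusted p = 1.9e-05), and all 3 4SU+UVA libraries were lower than any 4SU library. For ASCC3 it was 0.69 (SE 0.22, adjusted p = 0.03), and the 3 4SU+UVA libraries (8.85, 11.8 and 12.4 RPKM) lay above the 3 4SU libraries (6.496, 4.84 and 5.23 RPKM). The ASCC3 difference no longer passed in 8 of 21 alternatives, 7 of them without a single library (values from 0.57 to 0.68, adjusted p up to 0.082). Of all genes tested, 24.8% passed this test. In the length and density class of GCN1 the median difference was -0.67, and 27 of the 112 genes lay below GCN1. In the class of ASCC3 the median was -0.07, and 14 of the 545 genes lay above ASCC3.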

How the results depend on the processing

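Of 60 results (10 genes in 6 contrasts that share libraries) 20 passed. Of these, 15 passed under every alternative run, including all 6 of 4SU+UVA against untreated cells. Among all genes 59% passed for 4SU+UVA, 14.4% for 4SU and 0.652% for UVA, each against untreated cells. The share was 44% for 4SU+UVA against 4SU, 54.4% for 4SU+UVA against UVA and 24.8% for the interaction. How many of all genes passed under every alternative was not counted. No value that passed changed sign. The count for 4SU against untreated, 2 genes, was 1 with no filter on low values and with the compared groups alone, 0 with no variance trend, 3 with median centring (ASCC3 added, lower), 3 with voom on recovered reads (ZNF598 added, higher) and from 0 to 2 without 1 library. The count for the interaction, 2 genes, was 1 with no filter on low values and from 1 to 3 without 1 library. With the replicate block the counts were 6, 2, 0, 6, 4 and 2 for the 6 contrasts, as without it, and the ratio differences were 0.34, 1.27, 0.97, 0.23 and -0.41. Across all genes, 4SU against untreated passed 728 genes without 4SU replicate 1, 773 without 4SU replicate 2, and 871 and 869 without untreated replicates 2 and 3, against 1654 with all libraries. UVA against untreated passed 27 without the variance trend, 42 after quantile normalisation and 45 with no filter, against 75. The count-based quasi-likelihood test listed as an alternative was not run, since the deposited values are RPKM. Depth limits RNF14, ASCC3 and RNF25 most, at 43 to 207 reads per library.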
